A study of Mus musculus with 6 samples.

Results

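Choroid plexus epithelium genes are 40 of the 16179 genes in the deposited table of sorted hippocampal microglia, and all 40 symbols were found in it. They were selected on known expression in the choroid plexus and on their higher values in the BODIPY-high libraries, with earlier results in view. Their difference between the sorted fractions and their order against Ttr are therefore given as descriptions, without a test. The libraries came from male progranulin knockout mice (strain B6.129S4(FVB)-Grntm1.1Far/Mmja) aged 10 months. Each sample pooled the hippocampi of 2 mice, and live CD11b+ CD45lo cells, the gate used for microglia, were sorted by BODIPY, a dye of neutral lipids. The BODIPY-low group (few lipid droplets) and the BODIPY-high group (many) have 3 libraries each. Every library carries the Grn knockout, no wild-type library was analysed here, and no label tells if libraries of the 2 groups came from the same mice. Replicates are pools of 2 animals, so spreads and p-values refer to variation between such pools and not between single animals. They rest on 3 libraries per group, and no pairing of the groups was modelled except where a replicate block is named.

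The choroid plexus hangs in the brain ventricles and is a sheet of epithelium over leaky capillaries. It makes cerebrospinal fluid by moving sodium, chloride, bicarbonate and water into the ventricle, and it exports carrier proteins such as transthyretin. In the embryo it arises from the roof plate under homeodomain and LIM-homeodomain factors, and it lies against the hippocampus along the choroid fissure. CD11b, the basis of the sort, belongs to myeloid cells and is not a marker of this epithelium.

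The 12 microglia genes had a higher sum than the members or any other cell list in all 6 libraries. They summed to between 1736888 and 1973770.2 normalised reads in BODIPY-low and between 1537473 and 1667965 in BODIPY-high libraries. A normalised read is a read divided by a library's size factor. The member Enpp2 alone had 165177, 79265 and 151972 in BODIPY-high replicates 1, 2 and 3. Of the microglia genes, P2ry12 had 175450, 144933 and 151415 there, and Tmem119 146546, 155729 and 145419. Libraries held 24982215 to 34899425 reads, with 14304 to 14535 genes detected in BODIPY-low and 14688 to 14783 in BODIPY-high libraries. Differences are given on the log2(value + 1) scale as BODIPY-high minus BODIPY-low, a scale that understates the change of genes with few reads. A gene is said to pass where limma gave a Benjamini-Hochberg adjusted p below 0.05 over the 12821 genes that averaged 10 or more. By that test 9.79% of the tested genes were higher and 3.52% lower in BODIPY-high libraries.

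Start regions of 3 abundant members, from the RefSeq promoter table (GRCm38.p6), are shown first, because their values below follow those of Ttr (Kl and Kcnj13) or depart from them (Cab39l). Each is the 250 bases before a transcription start, 5′ to 3′ along the gene, and capitals mark a TATAAA motif. Kl lies on the plus strand at chr5:150952357-150952606. Cab39l has starts on the plus strand at chr14:59440713-59440962 and chr14:59478701-59478950. Kcnj13 lies on the minus strand at chr1:87394730-87394979.
Kl: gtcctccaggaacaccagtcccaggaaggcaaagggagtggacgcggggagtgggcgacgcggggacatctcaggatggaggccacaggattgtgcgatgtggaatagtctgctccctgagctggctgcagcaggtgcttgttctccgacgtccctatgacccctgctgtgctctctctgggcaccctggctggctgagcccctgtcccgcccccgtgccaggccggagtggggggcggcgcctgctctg
Cab39l, first start: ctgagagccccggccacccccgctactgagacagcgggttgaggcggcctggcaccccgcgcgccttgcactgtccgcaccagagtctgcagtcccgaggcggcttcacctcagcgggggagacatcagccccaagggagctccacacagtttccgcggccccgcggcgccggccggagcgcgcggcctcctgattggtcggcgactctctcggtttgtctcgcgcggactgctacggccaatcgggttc
Cab39l, second start: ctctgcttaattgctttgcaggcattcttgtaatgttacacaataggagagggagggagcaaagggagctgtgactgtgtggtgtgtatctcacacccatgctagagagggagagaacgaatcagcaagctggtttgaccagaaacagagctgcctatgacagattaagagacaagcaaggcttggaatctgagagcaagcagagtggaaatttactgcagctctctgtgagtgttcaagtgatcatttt
Kcnj13: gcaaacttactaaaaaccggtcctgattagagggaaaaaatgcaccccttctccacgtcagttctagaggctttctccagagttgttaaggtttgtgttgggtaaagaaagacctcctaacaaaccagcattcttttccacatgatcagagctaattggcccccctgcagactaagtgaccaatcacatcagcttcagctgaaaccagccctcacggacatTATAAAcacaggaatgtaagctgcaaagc
These windows differ in composition. The Kl window is 66.8% G and C with 13 CpG, and the first Cab39l window is 70.8% with 29 CpG. The second Cab39l window is 46% with 1 CpG, and the Kcnj13 window is 45.2% with 3 CpG and holds the motif 29 bases before the start.

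Of the 40 members 29 were matched in the promoter table, with 38 windows that run from 250 bases before to 50 bases after a start. TATAAA, the TATA box, was present on either strand in 15.8% of these windows and in 13.6% of all 32851 windows of the table. TAATCC, the core bound by OTX2 and related homeodomains, was present in 10.5% against 7.06%, in windows of Ace, Car14, Otx2 and Vat1l. GTAAACA, a forkhead motif, was present in 2.63% against 3.65%, in Prlr alone among the members. None of the 3 motifs contains another, and a match is only a string of letters in the window. The median G and C content was 57.4% for members and 52.4% for all windows, and the median number of CpG was 6 in both.

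The members lay far higher in BODIPY-high than in BODIPY-low libraries, which is part of how they were chosen. Their median difference was 4.47, with quartiles of 4.13 and 4.78, against a median of -0.01 over all tested genes. All 3 BODIPY-high values exceeded all 3 BODIPY-low values for 38 of the 40 members, where 16.0% of all 16179 genes in the table showed this. Of the 39 members that reached the mean of 10, 38 were called higher and 0 lower, beside the 9.79% of all tested genes. Nothing is read from these counts because the contrast chose the genes, and 7 members had a BODIPY-low mean under 10. Fewer cells of a type and less RNA per cell cannot be told apart in such bulk samples.

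**Figure D1:**
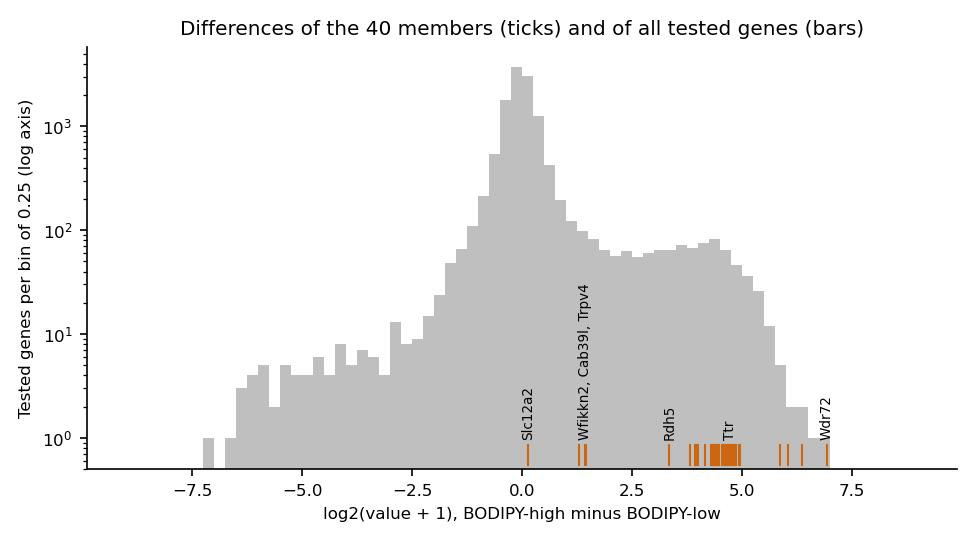
Histogram of the log2(value + 1) difference, BODIPY-high minus BODIPY-low, of all 12821 tested genes (grey bars, bins of 0.25, log axis of gene number), with an orange tick for each of the 40 members. Most ticks lie in a narrow band, 31 of them between 3.8 and 5, while Slc12a2, Wfikkn2, Cab39l, Trpv4 and Rdh5 lie below it.

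Most members differed by similar amounts. The differences lay between 3.8 and 5 for 31 members, above 5 for Cndp1, Bhmt, Dmrt3 and Wdr72, and below 3.8 for Slc12a2, Wfikkn2, Cab39l, Trpv4 and Rdh5. The medians by role were 4.52 for 8 secreted proteins, 4.45 for 5 channels, 4.44 for 7 ion transporters and carbonic anhydrases, and 4.36 for 3 solute transporters. They were 4.69 for 3 receptors, 4.81 for 5 enzymes, 4.49 for 4 transcription factors and 4.31 for the other 5 members. The members are spread over 18 chromosomes, with at most 5 on one of them.

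Ttr encodes transthyretin, the carrier of thyroxine and of retinol-binding protein in cerebrospinal fluid, and was the yardstick for the other members. BODIPY-low replicates 1, 2 and 3 held 6635, 1077 and 2572 normalised reads of Ttr, whereas the BODIPY-high replicates of these numbers held 68025, 58900.1 and 87542. Replicate 1 was thus the highest and replicate 2 the lowest of the BODIPY-low libraries, 6.16-fold apart, and the groups did not overlap. Among the BODIPY-high libraries replicate 3 was highest and replicate 2 lowest, 1.49-fold apart. Ttr differed by 4.74 on the log2 scale between groups. Values below are given in the same order, BODIPY-low replicates 1, 2 and 3 before BODIPY-high replicates 1, 2 and 3.

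Among the secreted proteins, Enpp2 had the most reads. It encodes autotaxin, which makes lysophosphatidic acid, and had 10437, 2261 and 3771 against 165177, 79265 and 151972 normalised reads (difference 4.82). Enpp2 followed Ttr in the BODIPY-low libraries, but replicate 1 rather than 3 was highest among the BODIPY-high ones. Clu, which encodes the extracellular chaperone clusterin (GRCm38 chromosome 14, 65968483 to 65981547), had 715, 266 and 456 against 9317, 7175 and 12093 (4.39). Kl, which encodes klotho, the co-receptor of fibroblast growth factor 23 (chromosome 5, 150952607 to 150993817; promoter above), had 695, 178 and 347 against 7691, 5194 and 9933 (4.39). Both had the library order of Ttr in each group.

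The other secreted members lay lower. Sostdc1, an antagonist of bone morphogenetic protein and Wnt signals, had means of 83.6 ± 61.6 and 1789 ± 498 (SD, n = 3 each), and F5, coagulation factor V, had 127 ± 36.2 and 1863 ± 688. Ptgds, the prostaglandin D2 synthase that is also abundant in leptomeninges and oligodendrocytes, had 149, 63.9 and 94.6 against 1647, 3361 and 2596. It was the 1 member of 38 with a value in BODIPY-high replicate 3 below that in replicate 2 (0.77-fold). Wfikkn2, which encodes a secreted inhibitor of growth factors of the transforming growth factor beta family, had 1.14, 0 and 0 against 3.77, 0 and 5.56. Its 1 read in the BODIPY-low and 11 in the BODIPY-high group gave a ratio of 9.93 with a 95% counting interval of 1.44 to 427, and it was not tested. Such intervals, also given below for Cndp1, Dmrt3 and Wdr72, pool the reads of each group's 3 libraries. They leave out the spread between libraries and are no test of the difference.

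The water and ion channels let the epithelium move fluid and set its membrane potential. Clic6, of the chloride intracellular channel family, had 279, 92.7 and 161 against 4255, 2373 and 6513 normalised reads (difference 4.64). Kcnj13, the inward rectifier potassium channel Kir7.1 (chromosome 1, 87386363 to 87394729; promoter above), had 229.8, 73.5 and 193 against 3623, 2352 and 4079.8 (4.45). Both kept the order of Ttr in each group. Aqp1, the apical water channel, and Kcne2, a potassium channel beta subunit, had BODIPY-high means of 536 ± 82.7 and 848 ± 275 against 28.2 ± 20.4 and 59.4 ± 56 (SD, n = 3 each).

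Trpv4, a cation channel opened by osmotic swelling and warmth (chromosome 5, 114622152 to 114658421), behaved differently. It had 557, 673 and 487 against 1696, 1323 and 1668 normalised reads, and BODIPY-low replicate 2, the lowest for Ttr, was its highest low library. At the ratio to Ttr seen in the BODIPY-high group, a BODIPY-low mean of 74.9 would go with the Ttr level there, and the measured mean was 572.

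Ion transporters and carbonic anhydrases load the epithelium with chloride and bicarbonate. Car12, a membrane carbonic anhydrase, had 142, 34.1 and 70.5 against 2249, 1606 and 2844 normalised reads (difference 4.94). Car2, the cytosolic form, had 174, 57.5 and 86.3 against 2141, 1245 and 2781 (4.34). Each had the order of Ttr in both groups. The differences of the sodium bicarbonate transporters Slc4a5 and Slc4a10, of the sodium pump subunit Atp1b1 and of the membrane carbonic anhydrase Car14 were 4.86, 4.44, 4.34 and 4.77, with BODIPY-high means of 838 ± 288, 1705 ± 752, 1199 ± 354 and 562 ± 181 (SD, n = 3 each).

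Slc12a2 encodes NKCC1, the sodium, potassium and chloride cotransporter of the apical membrane (chromosome 18, 57878678 to 57946821). It had 8245, 10337 and 9771 against 10504, 9907 and 10845 normalised reads. The groups overlapped and the difference was 0.15. As a description only, Slc12a2 was the 1 member in the fit that was not called higher. Its BODIPY-low mean of 9451 compares with 499.6 at the ratio to Ttr of the BODIPY-high group. It alone took between 25.8% and 59.3% of the member reads in the BODIPY-low libraries.

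Solute transporters and receptors of the plexus membrane followed Ttr more closely than Slc12a2 did. Slco1c1, the thyroxine transporter OATP1C1, had 183, 95.9 and 111 against 2389, 1370.5 and 2333 normalised reads (difference 3.97). Slc13a4, a sodium sulfate cotransporter, had 113, 21.3 and 82.6 against 1367, 808 and 1678 (4.36). Slc16a8, the lactate transporter MCT3, had 25.2, 5.33 and 13 against 328, 257 and 353 (4.55). In all 3 the BODIPY-low order was that of Ttr, and the BODIPY-high order was too, except in Slco1c1.

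Folr1, the folate receptor alpha that brings folate into cerebrospinal fluid, had 137, 33 and 55.7 against 1679, 1449 and 1869 normalised reads (difference 4.69). Prlr, the prolactin receptor, had 126, 24.5 and 69.6 against 1059, 674 and 1143 (3.94). Htr2c, the serotonin receptor 2C, had 10.3, 4.26 and 11.1 against 329, 157 and 350.4 (4.88). Folr1 and Prlr kept both orders of Ttr, whereas Htr2c was marginally higher in BODIPY-low replicate 3 than in replicate 1.

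Of the enzymes, Sulf1, which trims sulfate from heparan sulfate, had 144, 44.8 and 50.1 against 3099, 1104 and 2173 normalised reads (difference 4.81). Ace, the angiotensin-converting enzyme, had 127, 46.9 and 52 against 1569.6, 1310.5 and 2186 (4.59). Rdh5, a retinol dehydrogenase (chromosome 10, 128913593 to 128922888), had 114, 98 and 129 against 1028, 981 and 1565 (3.35). Rdh5 barely varied among the BODIPY-low libraries, and its exons overlap those of Bloc1s1 on the same strand, so its reads are uncertain. Its BODIPY-low mean of 114 compares with 57.1 at the ratio to Ttr of the BODIPY-high group.

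Cndp1, a carnosine dipeptidase, and Bhmt, the betaine-homocysteine methyltransferase, were near or at 0 in the BODIPY-low group. Cndp1 had 1 read there and 293 in the BODIPY-high group, a ratio of 264 with a counting interval of 47.1 to 10480. Bhmt had 0 and 419 reads, at least 126-fold higher when the group's floor is set at 3 reads, with BODIPY-high values of 80.1, 27.2 and 246. BODIPY-high replicate 2 was lowest for both, as for Ttr.

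The transcription factors had BODIPY-high means between 103 (Dmrt3) and 954 (Otx2) normalised reads. Otx2, the homeodomain factor needed to form and keep the plexus, had 89.2, 10.7 and 56.6 against 1006, 677 and 1179.9 normalised reads (difference 4.57). Msx1, a roof plate homeodomain factor, had 27.4, 6.39 and 9.28 against 244, 238 and 357 (4.41). Lmx1a, a LIM-homeodomain factor of the roof plate, had 6.86, 9.59 and 11.1 against 156, 88.3 and 299 (4.01). Otx2 and Msx1 had both orders of Ttr, while Lmx1a was lowest in BODIPY-low replicate 1, at under 10 normalised reads. Dmrt3, of the doublesex-related family, had 3 reads in the BODIPY-low group, all in replicate 1, and 342 in the BODIPY-high group. The ratio was 103 (counting interval 34.9 to 501).

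Cab39l, a scaffold partner of the kinase STK11 (chromosome 14, 59440972 to 59585764; promoters above), had 1479.6, 1577 and 1632 against 4650.4, 2945 and 5413 normalised reads (difference 1.43). It varied little among the BODIPY-low libraries, and its mean there was 1563 where the ratio to Ttr of the BODIPY-high group would give 208. Vat1l, an oxidoreductase-like protein, had 183, 27.7 and 61.2 against 1761, 794 and 1826 (4.31), and Calml4, a calmodulin-like protein, had 24, 8.52 and 10.2 against 407, 391 and 505 (4.96). Both had the order of Ttr in each group. Tmem72, a membrane protein, had means of 21.5 ± 8.08 and 345 ± 97.8 (SD, n = 3 each). Wdr72, a WD repeat protein, had 1 read in the BODIPY-low and 526 in the BODIPY-high group, a ratio of 475 (counting interval 84.8 to 18786).

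**Figure D2:**
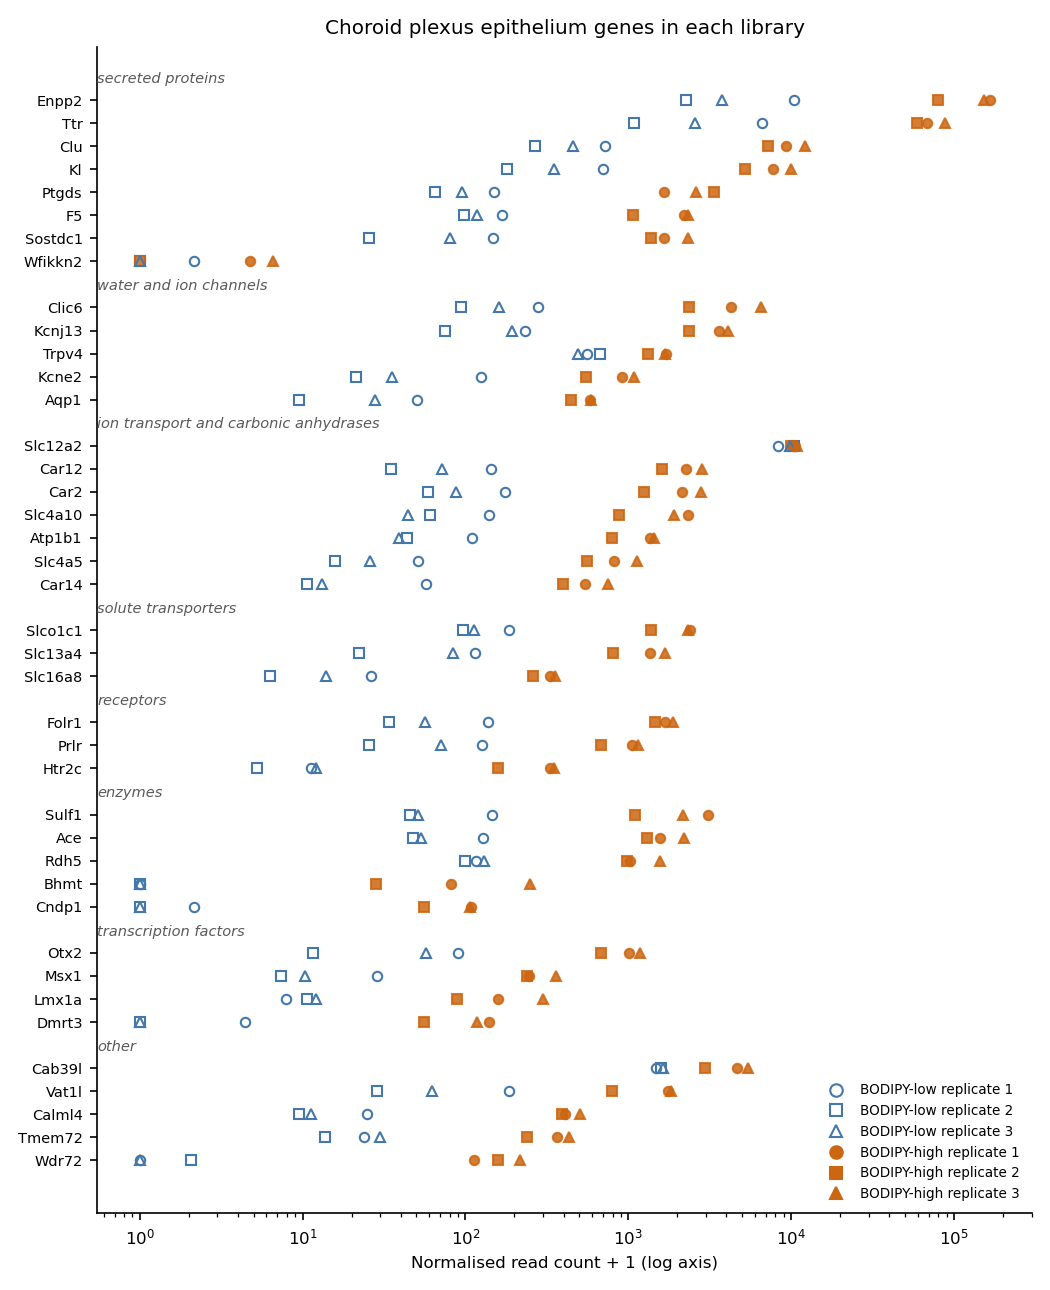
Normalised read counts + 1 (log axis) of the 40 members in each of the 6 libraries, BODIPY-low and BODIPY-high marked apart, ordered by role. For 38 members every BODIPY-high library lies above every BODIPY-low library, and the exceptions are Slc12a2 and Wfikkn2.

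The library order set by Ttr recurred among the members. In the BODIPY-low group 25 of the 39 members other than Ttr had its order (replicate 1, then 3, then 2), where 21.0% of all tested genes did. In the BODIPY-high group 30 of 39 had its order (replicate 3, then 1, then 2), where 16.5% did. Both orders held for 21 members and neither for 5, and 3.54% of tested genes held both. Since the order against Ttr is named in how the members were compared and the genes are not independent, these are counts without a test.

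Single libraries stood out in the same way for most members. Of all 40, BODIPY-low replicate 1 was highest of its group in 31 and BODIPY-low replicate 2 strictly lowest in 29. BODIPY-high replicate 2 was the lowest of its group in 38, and replicate 3 the highest in 32. BODIPY-low replicate 1 exceeded replicate 2 by a median of 3.02-fold over 35 members, 30 of them above 1, and Otx2 and Vat1l did so by as much as Ttr or more. BODIPY-high replicate 3 exceeded replicate 2 by a median of 1.81-fold over 38 members. The fold for Ttr was thus above the members' median in the BODIPY-low group and below it in the BODIPY-high group.

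Dividing each member by Ttr in the same library removed most of the range. Ttr and the members were chosen for the same difference between groups, so this narrowing follows largely from the choice and is no test. Over the 34 members with reads in every library, the highest value was a median of 55.6-fold above the lowest, and the ratio to Ttr a median of 2.29-fold. That ratio stayed within 2-fold over the 6 libraries for 10 members, within 3-fold for 24, and moved more for 10. Sostdc1 stood at 22.2, 22.7 and 30.7 reads per 1000 of Ttr in the BODIPY-low libraries and at 24.3, 23.3 and 26.7 in the BODIPY-high ones, a spread of 1.38-fold. Spreads were 1.33-fold for Slc16a8, 1.48-fold for Folr1, 1.55-fold for Car12 and 1.56-fold for Aqp1. At the other end were Slc12a2 (77.5-fold), Trpv4 (32.8-fold), Cab39l (29.3-fold), Lmx1a (8.61-fold) and Rdh5 (6.02-fold).

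**Figure D3:**
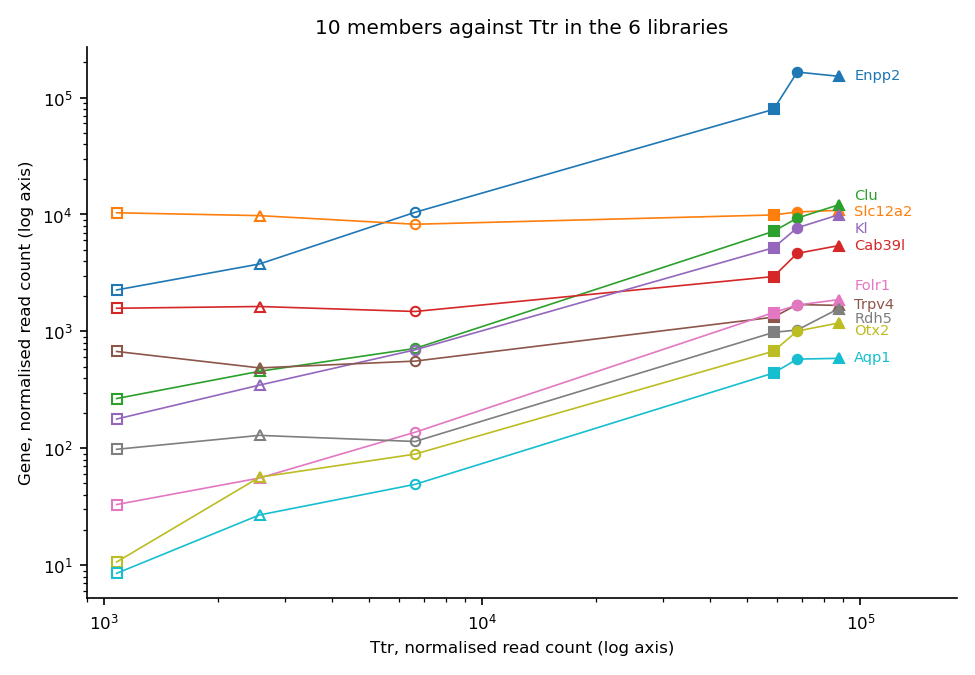
Normalised read counts of 10 members (y, log axis) against those of Ttr (x, log axis), with open marks for BODIPY-low and filled marks for BODIPY-high libraries, and circles, squares and triangles for replicates 1, 2 and 3. Lines join the 6 libraries of a gene in order of Ttr, and Clu, Kl, Folr1 and Aqp1 climb with Ttr while Slc12a2, Cab39l and Trpv4 are nearly flat over the BODIPY-low libraries.

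Levels between genes were compared per kilobase of annotated exon (union of GENCODE M21 exons, which is longer than a single transcript). In the BODIPY-high group Ttr stood at 60278 normalised reads per kilobase and Enpp2 at 22865, or 37.9% of Ttr. Clu (2772 per kilobase, 4.60% of Ttr) and Kcnj13 (2639, 4.38%) came next and lay close to each other, followed by Ptgds (1537), Clic6 (1119) and Sostdc1 (1005).

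Members took 0.112%, 0.0630% and 0.0751% of all reads in BODIPY-low and 1.08%, 0.680% and 1.19% in BODIPY-high libraries, by replicate number. The means were 0.0832% ± 0.0253 and 0.983% ± 0.267 (SD, n = 3 each), a ratio of 11.8. The exact 95% Clopper-Pearson intervals were narrow, from 0.0621 to 0.0640% in the lowest library and from 1.18 to 1.19% in the highest. Ttr and Enpp2 together made 75.6%, 71.8% and 72.8% of the member reads in BODIPY-high libraries and 53.5%, 19.2% and 30.5% in BODIPY-low ones. Without these genes the shares were 0.0517% ± 0.000653 and 0.259% ± 0.0651, a ratio of 5.02. Of the reads then left in BODIPY-low replicates 1, 2 and 3, Slc12a2 held 7211 of 12982, 9701 of 13215 and 10530 of 15545. Without Slc12a2, left out after its values were seen, the ratio over the other 39 members was 19.1. Without Enpp2, Ttr and Slc12a2 the shares were 0.0178% ± 0.00484 and 0.222% ± 0.0630, a ratio of 12.5.

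How reads were assigned bears on some members. Exons of 12 members overlap another annotated gene, and for 7 that gene is in the table: Atp1b1 with Nme7, Cab39l with Cdadc1, Car14 with Aph1a, F5 with Gm16548, Kcnj13 with Gigyf2, Otx2 with Otx2os1, and Rdh5 with Bloc1s1. All but the last lie on opposite strands. The strand column counted is not given in the sources used here, so values of these members are uncertain where the exons meet.

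Genes of the choroid plexus that are not members were drawn from 3 further lists and mostly rose as well. Of 65 genes listed, 59 were in the table and 55 tested. Of these 37 rose, 0 fell and 18 did not pass (limma, adjusted p below 0.05), where 9.79% of all tested genes rose and 3.52% fell. A fall was called in 3 alternative fits: Spint1 with a replicate block and without BODIPY-high replicate 1, and Slc4a7 without BODIPY-low replicate 1. Their median difference was 3.23, against -0.01 over all tested genes. The BODIPY-low mean of 9 tested genes was under 10, so these passed the filter only through the BODIPY-high group. Among the 37, the BODIPY-low order of Ttr held for 19 and its BODIPY-high order for 25. The lists were written with the results on Ttr known, so they are no independent evidence of direction.

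Transporters were divided. Of 23 tested transporters of the list 10 rose, with a median difference of 0.29. Slc29a4, a monoamine transporter of the plexus, rose from 119, 50.1 and 57.5 to 1694, 1375 and 2237 normalised reads (limma difference 4.61, SE 0.30, adjusted p = 2.06e-05). Slc4a2, the chloride and bicarbonate exchanger AE2, rose from 1581, 1912 and 1969 to 3051, 3143 and 4549 (0.96, SE 0.15, adjusted p = 0.00225). The potassium and chloride cotransporter Slc12a4 rose by 0.73 (SE 0.12, adjusted p = 0.00278) and the copper transporter Slc31a1 by 0.38 (SE 0.11, adjusted p = 0.0444).

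Slc31a1 did not pass when BODIPY-low replicate 2, BODIPY-low replicate 3, BODIPY-high replicate 1 or BODIPY-high replicate 3 was left out (adjusted p from 0.105 to 0.157), nor at a mean of at least 50 (0.0514). The most abundant of the 13 transporters that did not pass were the sodium pump subunit Atp1b3 (difference 0.11, adjusted p = 0.495) and the vitamin C transporter Slc23a2 (0.29, limma adjusted p = 0.0813, but 0.0498 with the replicate block). Their BODIPY-low values were 12934, 12794 and 11880.3 for Atp1b3 and 5406, 5809 and 6346 for Slc23a2.

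Of 25 tested secreted, barrier and structural genes 22 rose, with a median difference of 4.23. Igfbp2, an insulin-like growth factor binding protein, rose from 412, 97 and 187 to 3331, 2918 and 4820.4 normalised reads (limma difference 4.20, SE 0.40, adjusted p = 9.77e-05). Col9a3, a collagen IX chain, rose from 156, 43.7 and 77.9 to 2107, 1471 and 2982 (4.68, SE 0.39, adjusted p = 5.14e-05). Groups did not overlap for either. Ezr, which encodes ezrin of the microvilli, rose by 2.55 (SE 0.27, adjusted p = 1.71e-04), and 1500015O10Rik, the older symbol of Ecrg4, a secreted peptide precursor, rose by 4.80 (SE 0.38, adjusted p = 4.24e-05). Pon3, a lactonase, did not pass (0.09, adjusted p = 0.669). Spint1, a protease inhibitor, did not pass either (-0.31, adjusted p = 0.228), but its limma adjusted p was 0.0183 with the replicate block and 0.0404 without BODIPY-high replicate 1. Their BODIPY-low values lay between 3797 and 8368.

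Of 7 tested roof plate and plexus transcription factors 5 rose, all at low levels, where 9.79% of all tested genes rose. All 5 had a BODIPY-low mean under 10 and passed the filter only through the BODIPY-high group. Their count and p-values are therefore no test of direction. Foxj1, the master regulator of motile cilia, had 11.4, 0 and 0 against 84.8, 79.3 and 94.5 normalised reads (limma adjusted p = 0.00422, but 0.0693 with DESeq2). Rfx2, a ciliary factor, had 16, 0 and 1.86 against 105, 81.5 and 72.3 (adjusted p = 0.00716). Otx1 had 5.72, 0 and 5.57 against 54.6, 31.7 and 76.3 (adjusted p = 0.0117), which was lost without BODIPY-high replicate 3 (0.0720). Msx2, a relative of Msx1, had 0 reads in the BODIPY-low and 153 in the BODIPY-high group, most of them in replicate 3 (adjusted p = 0.00465). Without BODIPY-high replicate 3, Msx2 and Gmnc fell under the filter and were not tested, so 2 of the 5, Foxj1 and Rfx2, were called, and at a mean of at least 50 none of the 5 was tested. Gmnc was also not called when any 1 BODIPY-low library was left out, and was under the filter without BODIPY-high replicate 2. Rfx3 and Meis1 did not pass (differences 0.45 and -0.49, adjusted p = 0.253 and 0.181).

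Among tested genes outside the members, the pattern nearest to Ttr was sought by the mean squared distance of log2(value + 1), centred per gene, over the 6 libraries. The 10 nearest were Fxyd1, Sod3, Chchd10, Cox8b, Col9a3, Slc6a20a, Strip2, Col18a1, 2410004P03Rik and Prelp, at distances from 0.0249 to 0.0885. Cox8b, Col18a1 and 2410004P03Rik had a BODIPY-low mean under 10 and passed the filter only through the BODIPY-high group. The distance includes the difference between the groups, so nearness to Ttr largely restates that difference and is no test. Fxyd1, phospholemman, a regulator of the sodium pump, had 70.9, 10.7 and 27.8 against 595, 518 and 775 normalised reads. Sod3, the extracellular superoxide dismutase, had 26.3, 3.20 and 13 against 244, 213 and 334. The nearest members were Sostdc1 (0.0250), Folr1 (0.0408), Slc16a8 (0.0451), Car12 (0.0478) and Aqp1 (0.0482). All these genes share the 6 libraries, and 2 of the 10, Fxyd1 and Col9a3, also stand on the plexus lists above.

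The tested markers of ependyma and fibroblasts, cells in or near the ventricle, were higher in BODIPY-high libraries, beside 9.79% of all tested genes. All 5 tested genes of ciliated ependyma rose, 2 of which (Dynlrb2 and Mia) had a BODIPY-low mean under 10 and passed the filter only through the BODIPY-high group. Their summed normalised reads were 45.8 to 77.8 in BODIPY-low and 540.3 to 825 in BODIPY-high libraries. Rsph1 and Tekt1, both of the ciliary axoneme, rose by 4.29 and 4.24 (limma adjusted p = 7.21e-05 and 2.37e-04), and axonemal genes are also expressed by plexus epithelium. Tmem212, Ccdc153 and Hydin of that list are not in the table analysed here. Of 8 measured fibroblast genes 4 were tested and rose, and Col1a2 and Ogn were tested only through their BODIPY-high values. The list's sums were 121 to 125 and 439 to 961, and the called genes include Fbln1 (1.78, adjusted p = 0.00502) and Pdgfra, whose call was lost without BODIPY-high replicate 3 (adjusted p = 0.0177 and then 0.0740). Col3a1 was at 0 in all BODIPY-low libraries and at most 1.88 in BODIPY-high ones, and Dcn was at or near 0 except in replicate 2 of each group (7.46 and 27.2). Mgp had 4.57, 6.39 and 5.57 against 2.83, 26.1 and 6.36, and Slc6a13 had 6.86, 1.07 and 0.93 against 36.7, 3.40 and 0. For both the groups overlapped, and neither was tested.

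Genes of neutrophils, which come from blood, went the other way. Of 9 tested neutrophil genes 8 fell and 0 rose, beside the 3.52% of tested genes that fell. The sums of BODIPY-low replicates 1, 2 and 3 were 79224, 29814 and 30615 against 465, 2292 and 197 in the BODIPY-high libraries, with Ngp and Ltf most abundant (differences -6.35 and -6.34, limma adjusted p = 1.85e-04 and 2.08e-04). BODIPY-low replicate 1 thus held the most reads both of neutrophil genes and of most members, and BODIPY-high replicate 2 the most neutrophil and the fewest member reads of its group. The part of ependyma, fibroblasts or neutrophils in the members' values was not tested.

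For other cell types, counts are read beside the 9.79% of tested genes that rose and the 3.52% that fell. Of 9 tested endothelial genes 1 rose, Slco1a4, while Kdr and Pecam1 did not pass (differences 0.36 and -0.05). Of 5 mural genes Vtn rose (3.53) and Cspg4 fell by 2.68 (limma adjusted p = 0.0488), a call lost in 8 alternatives (adjusted p up to 0.234). Of 9 astrocyte genes 3 rose, among them Aldh1l1 (1.07) and not Slc1a3 (0.11). Of 5 oligodendrocyte genes 0 passed in limma without a block (Cnp 0.24, Mbp 0.35), but Mbp was called higher with the replicate block (limma adjusted p = 0.0452). Of 5 neuronal genes Syt1 rose and Snap25 did not pass (1.37). Syt1 had 1 read in the BODIPY-low group, and 4 of these 5 genes passed the filter only through the BODIPY-high group. Of 8 genes of border macrophages 2 rose, with Mrc1 (0.55, limma adjusted p = 0.0563) and F13a1 (0.55) not passing. Mrc1 was called higher with DESeq2 (adjusted p = 0.0219) and in limma with the replicate block (0.0285). It was also called in limma without BODIPY-low replicate 1 (0.0348) or without BODIPY-high replicate 3 (0.0322). The 1 tested erythroid gene, Alas2, did not pass (-0.04). Of 12 microglia genes 4 fell, while Csf1r did not pass (-0.17) except with the replicate block (limma adjusted p = 0.0430).

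**Figure D4:**
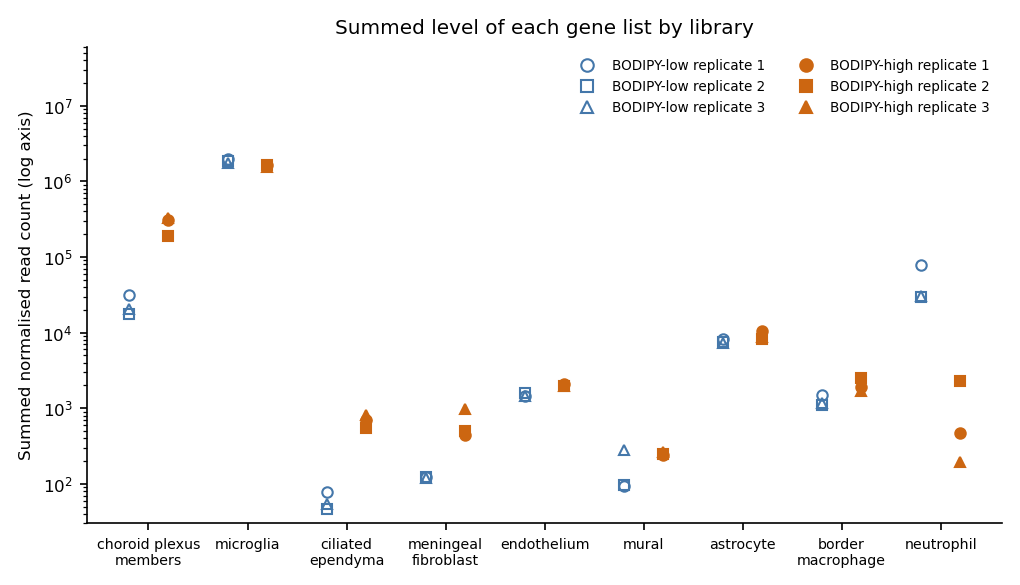
Summed normalised reads (log axis) of the genes of 8 cell lists, 1 mark per library, BODIPY-low and BODIPY-high apart, beside the sum of the 40 members. Sums of the members, ependyma, fibroblast, endothelium, astrocyte and border macrophage lists are higher in every BODIPY-high than in any BODIPY-low library. Astrocyte sums nearly meet, at 8250 in BODIPY-low replicate 1 and 8255 in BODIPY-high replicate 2. Most of them is Slc1a3, which did not pass, and Slco1a4 is the 1 endothelial gene that rose. Neutrophil and microglia sums are lower, mural sums overlap, and microglia genes exceed all other lists in the 6 libraries. Neuron and oligodendrocyte sums, not drawn, also separate. They are 34.1 to 38.9 against 154 to 169 and 4627 to 5201 against 5905 to 7227.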

How the data were processed

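RNA-seq of 6 libraries was analysed, 3 BODIPY-low and 3 BODIPY-high. Per the labels' protocols, SmartSeq v4 cDNA and Nextera XT libraries were read in pairs, mapped to mm10 with STAR 2.5.3a and counted per gene by STAR, after FastQC 0.11.4. The submitters' processing notes list mm9 beside mm10, and the gene annotation is not given in the sources used here. The deposited values are a signal: the authors divided each read count by a library's size factor. Whole reads were recovered, with 100% of values whole at a tolerance of 0.01 read, and amplified reads are not independent molecules, so intervals and floors (3 reads) cover counting error only.

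Genes with a mean of at least 10 were tested with limma 3.58.1 under R 4.3.3 (two-sided, trend on mean, no block) on log2(value + 1), with calls at an adjusted p (Benjamini-Hochberg) under 0.05. edgeR 4.0.16 and DESeq2 1.42.0 on recovered reads, other pseudocounts, filters and scalings, a replicate block and each library left out were alternatives. The fits were tested on simulated data. Python 3.11.15 made the descriptions. The labels name no batch.

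The members and lists were chosen with earlier results of these data known. All members are accounted for by role. Library values are printed for Ttr, up to 3 members of highest mean per role, the 5 smallest differences and any member under the filter, and Ptgds and Bhmt were added after their values were seen. From each plexus list the 4 called genes of highest mean per direction and the 2 uncalled ones are named, from each cell list the 2 of highest mean, and other genes there after their values were seen. A gene named by this rule is not reported here.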

Additional observations from a re-analysis of the deposited data

How the results depend on the processing

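The 38 members called higher numbered 38 in every alternative fit except at a mean of at least 50, where Cndp1 was not tested and 37 were called. No alternative turned the direction of a tested member. Of 79 alternative values of 8 results 72 were labelled as keeping their side and rough size, and 0 reversed. The label allowed sizeable shifts. Genes called higher kept it at 846 (mean of at least 50) and 1451 (replicate block), beside 1255 in the main fit. The 79 values include the member calls, which the choice of the members largely fixed. The 72 are therefore no measure of robustness. With 1 library left out, the genes called higher over the whole table ranged from 662 to 1309 and those called lower from 151 to 527; the lowest came without BODIPY-high replicate 3 (662 higher, 219 lower) and without BODIPY-low replicates 3 and 2 (151 and 180 lower). The ratio of the member share of reads was 5.02 without Enpp2 and Ttr, and 19.1 without Slc12a2 (chosen after seeing the data). It was 12.5 without Enpp2, Ttr and Slc12a2. With a replicate block 760 genes were called lower. Libraries of the same number had correlated deviations of 0.110, 0.144 and 0.0728 for replicates 1, 2 and 3. Between different numbers the correlations ran from -0.115 to 0.00158, so each library correlated best with its own number. The main fit had no block, and whether libraries of the same number shared mice was not tested. Of 539 alternative values of 39 other named genes 514 kept their side, 16 lost a call and 9 gained one. Depth limits Wfikkn2, Cndp1, Dmrt3, Wdr72 and Bhmt, with 3 or fewer reads in the BODIPY-low group. Leaving out a library leaves 2 in its group.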

Other observations

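Some transcripts of other brain cells did not share the library order of the plexus genes. Gja1, the gap junction protein connexin 43, had 5.72, 20.2 and 41.8 normalised reads in the BODIPY-low libraries against 268, 30.6 and 15.1 in the BODIPY-high libraries, by replicate number (limma difference 1.49, adjusted p = 0.365). Fgfr3, a growth factor receptor of astrocytes, had 1.14, 6.39 and 3.71 against 169.6 and 62.3 in BODIPY-high replicates 1 and 2 and 8.74 in replicate 3 (adjusted p = 0.0401), with a BODIPY-low mean under 10, so that it passed the filter only through the BODIPY-high group. Both were highest in BODIPY-high replicate 1, whereas Ttr was highest in BODIPY-high replicate 3. They were picked after their values were seen, and other genes of these cell lists did share an order with Ttr. On the same astrocyte list, Aldoc had its BODIPY-high order, and Gfap and Slc1a2 its BODIPY-low order. Vtn, Pdgfra and Snap25 of the mural, fibroblast and neuron lists had both.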
